A study of Mus musculus with 8 samples.

Results

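A group of 7 genes of protein folding and turnover was followed across aged and young mouse cortex cells, namely the ubiquitin ligase genes Ttc3 and Zfp91, the deubiquitinase gene Usp34, the glycoprotein folding sensor gene Uggt2 and the chaperone genes Hspa8, Hsp90ab1 and Hspa12a. They were taken by gene name from the authors' deposited table of RNA sites that differed between the ages, and accounted for 31 of its 2055 sites and 7 of its 789 genes. Ttc3 held 18 of the 31 sites, Hsp90ab1 held 4, Usp34 held 3, Zfp91 and Hspa8 held 2 each, and Uggt2 and Hspa12a held 1 each. All 31 sites passed the filters of that table, and sites of these genes outside it were not analysed here.

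The aged cells came from cortex of mice with the genotype APOBEC1-YTH, aged 12 to 14 months when tamoxifen began. They received 20 mg/kg every 24 h for 5 days, and tissue was taken 7 days after the last dose. The 8 aged libraries were 4 lanes of each of 2 split-pool sublibraries and the labels name no separate animals among them. The young cells come from another deposited series, and neither their exact age, dosing and library kit, nor the number of mice at either age, nor the promoter that drives the transgene could be read from the labels. Age and series of origin therefore cannot be told apart in any comparison below. The sample protocols describe dissociated, fixed whole cells and polyA RNA, whereas the design text of the series speaks of nuclei sorted for NeuN and of total RNA, and this difference was not resolved. Expression was not analysed here, so the tissue was not checked against marker genes.

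N6-methyladenosine (m6A) is a methyl mark placed on adenosines of messenger RNA, mostly near stop codons, in 3' UTRs and in long internal exons, and it is read by proteins with a YTH domain. APOBEC1-YTH joins such a domain to a cytidine deaminase, so that a C next to a methylated A is converted to U and appears as a C-to-U change in the reads of a cell. The genes followed here act in protein quality control. HSP70 and HSP90 chaperones fold and hold client proteins, and enzymes of the endoplasmic reticulum test the folding of glycoproteins. Ubiquitin ligases and deubiquitinases add and remove ubiquitin, a tag that can send proteins to the proteasome. Neurons are not replaced during life and depend on these systems to keep their proteins in working order.

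The sequences around 13 of the sites are shown because they carry the contrasts described below. Site numbers run 5' to 3' within each gene. Each run is 21 bases of the mm10 transcript, 5' to 3', with the edited C in the middle in capitals, together with the base before it where that base is an A.
Ttc3 site 8, chr16:94442683-94442703, plus strand: agaagaaaaACatgaaagcta
Ttc3 site 9, chr16:94442691-94442711, plus strand: aacatgaaagCtaaagttgaa
Ttc3 site 10, chr16:94442729-94442749, plus strand: agaatatttACgagttaaact
Ttc3 site 16, chr16:94462248-94462268, plus strand: aagttagaaACaaaaccaaga
Ttc3 site 2, chr16:94412076-94412096, plus strand: tgaagggggACgattgtgact
Ttc3 site 3, chr16:94426807-94426827, plus strand: tgttctgaaACagaaatgttc
Ttc3 site 14, chr16:94451070-94451090, plus strand: taaaaagtggCaacaagagaa
Zfp91 site 1, chr19:12770169-12770189, minus strand: tgggacagaACgggtgagcct
Zfp91 site 2, chr19:12769967-12769987, minus strand: ataaaaaggACaaaaaaaatt
Uggt2 site 1, chr14:118998120-118998140, minus strand: ggtgtgatgACgaatctaaac
Hspa8 site 2, chr9:40804961-40804981, plus strand: gcagaaagaACtggagaaagt
Hsp90ab1 site 1, chr17:45570544-45570564, minus strand: ggagaaggaACgggagaagga
Hspa12a site 1, chr19:58797311-58797331, minus strand: tgccgcagaACtccctgccag

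Each site has 3 values per age. The share of methylated cells is the percent of the 846 aged or 2623 young cells with a C-to-U call, the C-to-U within methylated cells is the mean percent of converted reads in those cells, and the mean C-to-U over all cells is the product of both. A cell without reads at a site counts as unmethylated, so that differences in RNA level, in coverage and in editing cannot be told apart in the share or the mean. The C-to-U within methylated cells is taken only over cells with a call. It too can differ with the reads per cell, low values included, and how far it did was not tested. The table holds no value per library, mouse or cell. No value below therefore has a replicate error and no test across samples was possible, and read depth per site is unknown. Shares carry exact binomial (Clopper-Pearson) 95% intervals, which cover counting error only. All adjusted p-values are those of the authors' deposited table, which lists no site at or above 0.05.

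Almost all of these sites were called methylated in a larger share of aged than of young cells, yet they parted into sites with a higher and sites with a lower mean signal. By mean C-to-U, 14 of the 31 sites were higher in aged cells and 17 lower. The share was higher at 29 of 31, and C-to-U within methylated cells at 12 of 31. Over all listed sites, 41.5% were higher by mean, 75.4% by share and 31.9% by C-to-U within methylated cells. By mean the members thus stood near the table as a whole, with 45.2% of sites higher.

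**Figure D1:**
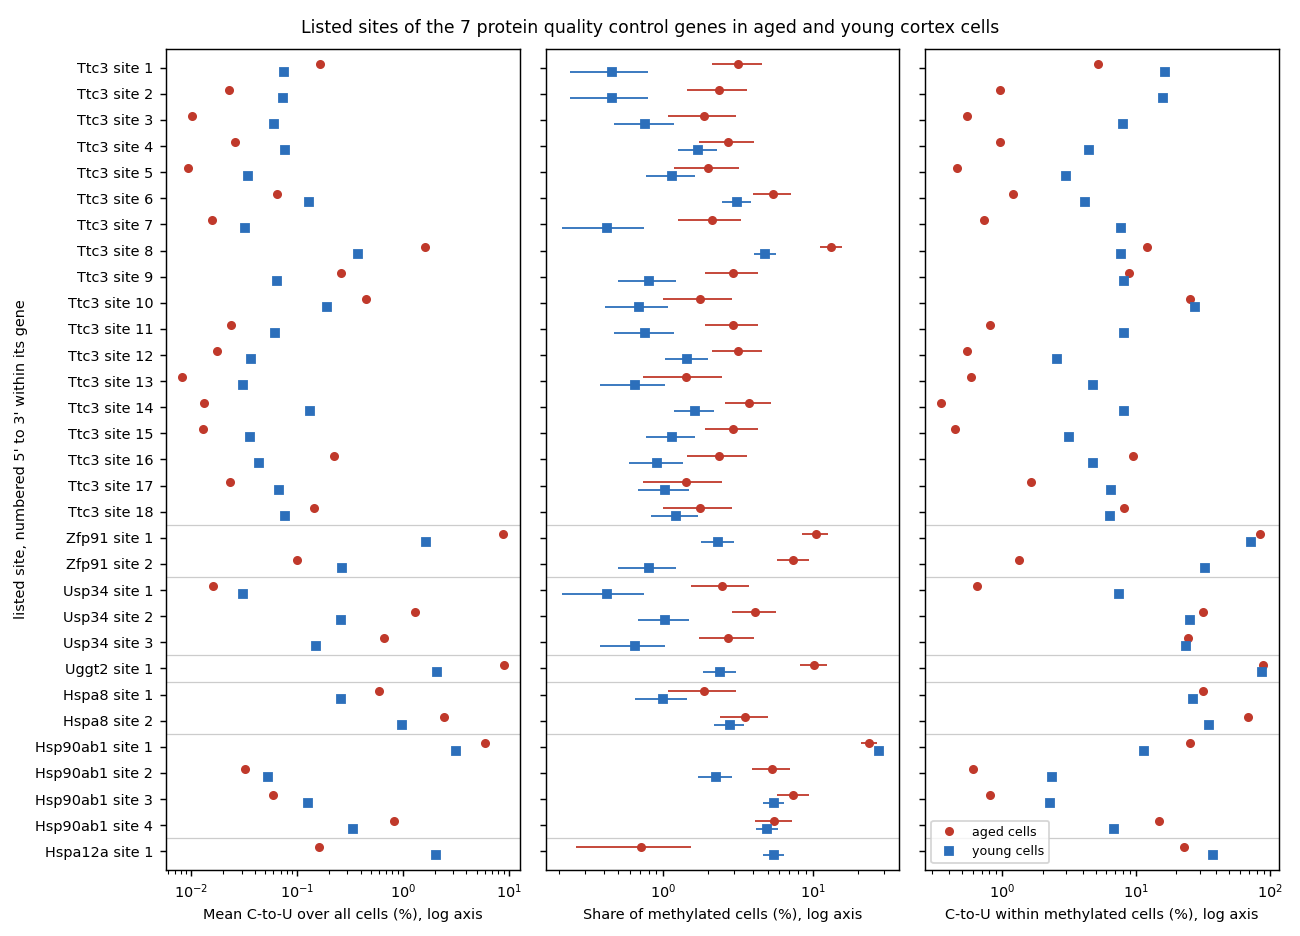
Mean C-to-U over all cells, share of methylated cells and C-to-U within methylated cells (percent, log axes) at each of the 31 listed sites in aged cells (red circles) and young cells (blue squares); bars on the shares are exact binomial 95% intervals. Aged shares lie above young shares at 29 sites, whereas the aged means lie above the young means at 14.

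Of the 31 sites, 27 lay in coding sequence, 3 in a 3' UTR and 1 in a 5' UTR. Among coding sites 12 of 27 were higher by mean and 26 of 27 by share, against 58.0% and 94.7% of all listed coding sites. Of the 3' UTR sites 1 of 3 was higher by mean and 2 of 3 by share, against 24.1% and 49.1% of all listed 3' UTR sites. The 5' UTR site, in Hspa8, was higher by both, as were 37.0% of listed 5' UTR sites by mean and 95.1% by share.

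**Figure D2:**
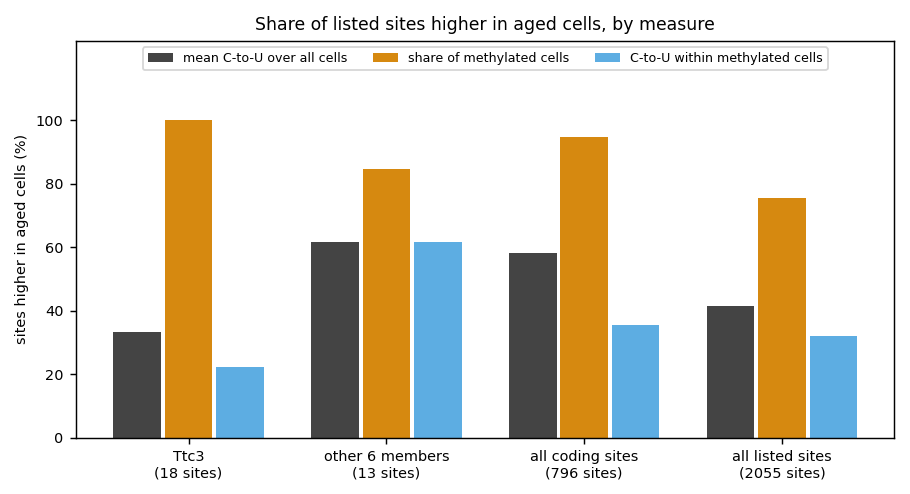
Percent of listed sites that were higher in aged cells (vertical axis) by mean C-to-U, share of methylated cells and C-to-U within methylated cells, for Ttc3, the other 6 genes, all listed coding sites and all listed sites. By mean, 33.3% of Ttc3 sites and 61.5% of the sites of the other 6 genes were higher, and by share 100% and 84.6%.

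Member sites with a higher and with a lower mean differed in the C-to-U within methylated aged cells. At 16 of the 31 sites it lay under 2% in aged cells, between 0.349% and 1.65%, and all 16 had a lower mean, as had 661 of the 711 listed sites under 2%. At the other 15 it lay between 5.18% and 88.6%, and 14 of these had a higher mean, with Hspa12a as the exception, whereas 802 of the 1325 listed sites at or over 2% had a higher mean. No member had an aged value between 1.65% and 5.18%, where 13.1% of all listed sites with a methylated aged cell stood. In young cells 0 of the 31 sites lay under 2%, and the range was 2.29% to 87.0%. Since the mean is the product of the share and the value within cells, these counts restate the same numbers and are no separate evidence.

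The same low aged values occurred across the table. Methylated cells averaged under 2% C-to-U at 34.9% of listed sites in aged cells and at 7.15% in young cells, and at 32.2% of listed coding sites in aged cells. The line at 2% was drawn after the values were seen. With a line at 1% instead, 13 member sites lay under it in aged cells and 0 in young cells, and with a line at 5%, 16 in aged and 9 in young cells. A lower mean together with a higher share occurred at 16 of the 31 member sites, against 35.3% of all listed sites. Ttc3 held 12 of these 16. Without Ttc3 it was 4 of 13, or 30.8%, and 4 of 13 were also under 2% within methylated aged cells.

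**Figure D3:**
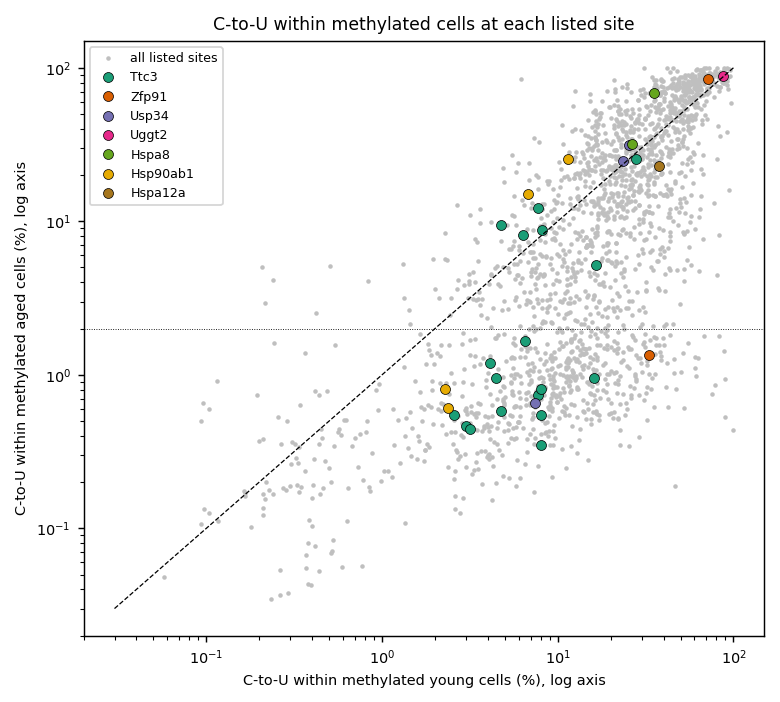
C-to-U within methylated aged cells (vertical, percent, log axis) against that within methylated young cells (horizontal, percent, log axis) for all listed sites (grey) and the sites of the 7 genes (coloured); the dashed line marks equal values and the dotted line 2% in aged cells. The sites of the 7 genes form an upper set at 5.18% to 88.6% and a lower set at 0.349% to 1.65% in aged cells.

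Ttc3 encodes a RING-type ubiquitin ligase with tetratricopeptide repeats. It showed a larger share of methylated aged cells at 18 of 18 sites but a higher mean at 6 of 18. Of its sites 17 were coding, and 94.7% of all listed coding sites were higher by share, so its count by share was near that of coding sites in general. By mean 5 of the 17 were higher, against 58.0% of all listed coding sites. The share ranged from 1.42% to 13.4% in aged cells and from 0.419% to 4.84% in young cells. The log2 ratio of the mean ran from -3.33 to 2.36, aged over young, with a median of -1.23. At the 12 lower sites the C-to-U within methylated cells had a median of 0.657% in aged cells and 5.66% in young cells. At the 6 higher sites it had a median of 9.13% in aged cells and 7.93% in young cells. The median log2 ratio of the share was positive in both sets, 1.42 at the higher and 1.17 at the lower sites.

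The strongest Ttc3 site was site 8, in exon 33 of 46, at position 94442693 of chromosome 16 (mm10). It was methylated in 113 of 846 aged cells, 13.4% (11.1 to 15.8), and in 127 of 2623 young cells, 4.84% (4.05 to 5.73). Its mean C-to-U was 1.62% in aged and 0.376% in young cells, a log2 ratio of 2.11, and the authors' deposited table gave it an adjusted p of 3.83e-30. Both factors were higher in aged cells, the share by 2.76-fold and the C-to-U within methylated cells at 12.1% in aged and 7.76% in young cells. Its edited C stood in AAACA, a DRAC motif (D being A, G or T and R being A or G). Site 9 lay 8 bases downstream and went the same way, with a mean of 0.261% in aged and 0.0648% in young cells, although its edited C followed a G. Site 10, 38 bases further on, had a mean of 0.450% in aged and 0.190% in young cells and almost the same C-to-U within methylated cells, 25.4% in aged and 27.7% in young.

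The 4 sites upstream of these in the same exon went the other way by mean. Exon 33 is 1021 bases long, the 7 sites lay within 178 bases of it, and all 7 had a larger share of methylated aged cells. Sites 4, 5, 6 and 7 had means of 0.0259%, 0.00927%, 0.0653% and 0.0156% in aged cells and 0.0765%, 0.0343%, 0.129% and 0.0326% in young cells. Site 6 was called in many cells, 46 aged and 82 young, but its C-to-U within them stood at 1.20% in aged and 4.13% in young cells. Sites 7 and 8 lay 60 bases apart, with log2 ratios of the mean of -1.06 and 2.11. Whether the same reads cover both could not be read from the table.

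Downstream, the 4 sites of exon 36 and the site of exon 35 were all lower by mean and higher by share. Site 14 had the largest decrease of the gene. Methylated cells numbered 32 among aged cells, 3.78% (2.60 to 5.30), and 43 among young cells, 1.64% (1.19 to 2.20). Its mean was 0.0132% in aged and 0.132% in young cells, a log2 ratio of -3.33, and the authors' deposited table gave it an adjusted p of 7.78e-07. The C-to-U within methylated cells stood at 0.349% in aged cells, the lowest aged value among the 31 sites, and 8.08% in young cells. Of the early sites, site 2 in exon 15 had a mean of 0.0226% in aged and 0.0732% in young cells and site 3 in exon 25 had 0.0103% in aged and 0.0613% in young cells. Site 2 was called in 20 aged and 12 young cells and site 3 in 16 aged and 20 young cells, and both were converted to under 1% within those aged cells, at 0.954% and 0.544%. Near the 3' end of the coding sequence, site 16 had a mean of 0.223% in aged and 0.0434% in young cells, a log2 ratio of 2.36. It was the Ttc3 site with the largest positive ratio, on 20 aged and 24 young cells, and its adjusted p was 2.41e-07 in the authors' deposited table. Site 17, 5 bases on, had 0.0234% in aged and 0.0674% in young cells, so that neighbours in exon 43 went in opposite directions by mean. Site 18 in exon 44 was higher, at 0.144% in aged and 0.0777% in young cells.

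**Figure D4:**
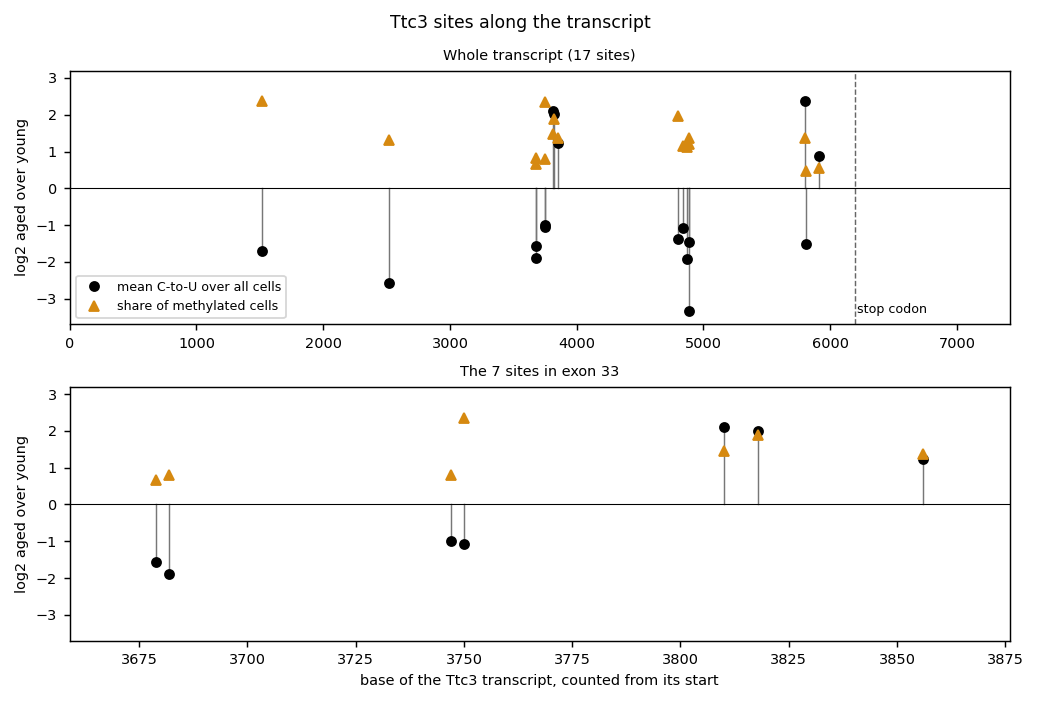
Log2 ratio of aged over young (vertical) for the mean C-to-U (black circles) and the share of methylated cells (orange triangles) at 17 Ttc3 sites against their position in bases along the transcript, for the whole transcript and for exon 33. All shares lie above 0, while the means of the first 4 sites in exon 33 lie below 0 and those of the next 3 above it.

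Site 1 of Ttc3 lies in the 3' UTR of a short 11-exon transcript and in an intron of the 46-exon transcript that carries the other 17 sites. Its mean was 0.165% in aged and 0.0756% in young cells, and its share 3.19% (2.11 to 4.61) in aged and 0.457% (0.237 to 0.798) in young cells. The fold of its share, 6.98, was the largest among the Ttc3 sites, while the conversion within methylated cells was lower in aged cells, at 5.18% against 16.5% in young cells. Of the 26 other genes with 10 or more listed sites, 12 had a smaller percent of sites higher by mean than the 33.3% of Ttc3, around a median of 33.3%. The 66.7% of Ttc3 sites with an aged value within cells under 2% was exceeded in 4 of those genes, around a median of 43.1%.

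Zfp91, a zinc finger protein that acts as an atypical ubiquitin ligase, had 2 sites in its last exon that went in opposite directions by mean. Site 1 lay in coding sequence 138 bases before the stop codon, at position 12770179 of chromosome 19. The call was made in 89 aged cells, 10.5% (8.53 to 12.8), and in 61 young cells, 2.33% (1.78 to 2.98). Its mean was 8.88% in aged and 1.67% in young cells, and the authors' deposited table gave it an adjusted p of 2.4e-12. Methylated cells were highly converted at both ages, 84.4% in aged and 72.0% in young cells. By difference of the mean this was the 7th largest increase of all listed sites.

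Site 2 of Zfp91 lay 202 bases downstream of site 1, in the 3' UTR, and its share was higher by a larger fold but by fewer points. The call was made in 63 aged cells, 7.45% (5.77 to 9.43), and in 21 young cells, 0.801% (0.496 to 1.22), a 9.30-fold difference that was the largest fold of the share among the 31 sites. The mean was nevertheless lower, 0.0995% in aged and 0.264% in young cells, since the C-to-U within methylated cells stood at 1.34% in aged and 33.0% in young cells. In the authors' deposited table its adjusted p, 9.07e-50, was the smallest of the 31 sites, at a site where share and mean disagreed.

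Usp34, a very large deubiquitinase, had 2 neighbouring sites higher by mean and 1 lower. Site 2, in exon 27 of 80 on chromosome 11, had a mean of 1.31% in aged and 0.263% in young cells, a 4.97-fold difference, and the authors' deposited table gave it an adjusted p of 5.09e-09. It was methylated in 35 aged cells, 4.14% (2.90 to 5.71), and 27 young cells, 1.03% (0.679 to 1.49). Site 3, 3 bases downstream, had a mean of 0.667% in aged and 0.152% in young cells. At both, the C-to-U within methylated cells was close between the ages, at 31.6% in aged and 25.5% in young cells for site 2 and 24.5% in aged and 23.5% in young cells for site 3. Site 1, in exon 15, was methylated in 21 aged cells, 2.48% (1.54 to 3.77), and 11 young cells, 0.419% (0.210 to 0.749). Its mean was nevertheless lower, 0.0162% in aged and 0.0311% in young cells. Its C-to-U within methylated cells stood at 0.652% in aged and 7.41% in young cells.

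Uggt2 encodes a glucosyltransferase that marks misfolded glycoproteins in the endoplasmic reticulum for another round of folding. Its site, in exon 37 of 39 and 181 bases before the stop codon at position 118998130 of chromosome 14, had the highest aged mean of the 31 sites, 9.01%, against 2.09% in young cells. It was methylated in 86 aged cells, 10.2% (8.21 to 12.4), and in 63 young cells, 2.40% (1.85 to 3.06). Methylated cells were converted to a nearly equal degree, 88.6% in aged and 87.0% in young cells, so that the 4.31-fold difference in the mean was almost all in the share, at 4.23-fold. Its adjusted p was 1.81e-33 in the authors' deposited table.

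Hspa8, the main cytosolic HSP70, and Hsp90ab1, the HSP90 beta isoform, are constitutive chaperone genes, and some of their sites showed a different split. At Hspa8 site 2 and Hsp90ab1 sites 1 and 4 the higher mean lay more in the conversion within methylated cells than in the share. Hspa8 site 2, in the last exon 144 bases before the stop codon, had a mean of 2.44% in aged and 0.985% in young cells. Its share was 3.55% (2.41 to 5.02) in aged and 2.78% (2.19 to 3.49) in young cells, with overlapping intervals, while its C-to-U within methylated cells stood at 68.9% in aged and 35.4% in young cells. Its adjusted p was 0.0409 in the authors' deposited table. Hspa8 site 1, in the 5' UTR, had a mean of 0.599% in aged and 0.263% in young cells and was called in 16 aged and 26 young cells. Its share was 1.89% (1.08 to 3.05) in aged and 0.991% (0.648 to 1.45) in young cells. Its C-to-U within methylated cells stood at 31.7% in aged and 26.5% in young cells, so that its higher mean lay more in the share. The 41 bases around site 2 occur without a mismatch in 6 annotated processed pseudogenes, among them Gm6210 and Gm8326, so the reads assigned to this site are uncertain.

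Hsp90ab1 had all 4 sites in exon 6 of 11, on chromosome 17. Site 1, at position 45570554, was the most widely called of the 31, in 202 aged cells, 23.9% (21.0 to 26.9), and 733 young cells, 27.9% (26.2 to 29.7). It was the only member site with a lower share and a higher mean in aged cells: the mean was 6.04% in aged and 3.21% in young cells and the C-to-U within methylated cells 25.3% in aged and 11.5% in young cells. The intervals of the share overlapped, and its adjusted p was 0.000453 in the authors' deposited table. Site 4 was also higher by mean, 0.830% in aged and 0.337% in young cells, with 14.9% in aged and 6.80% in young cells within methylated cells. Sites 2 and 3, 3 bases apart and between the other two, had means of 0.0322% and 0.0599% in aged cells and 0.0534% and 0.127% in young cells. Their C-to-U within methylated cells stood at 0.606% and 0.804% in aged cells and 2.37% and 2.29% in young cells. The shares of sites 2 and 3 were higher, 5.32% and 7.45% in aged cells and 2.25% and 5.53% in young cells. The intervals overlapped at site 3 and not at site 2.

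The windows of Hsp90ab1 also have near copies. With up to 3 mismatches in 41 bases, the processed pseudogene Gm6368 matched at all 4 sites, and at site 3 one of its differences was C21T, counted from 1 at the 5' end of the window, which is the edited base. The part of that copy in the values of site 3 was not tested. Zfp91 site 1 had a copy with 1 mismatch in Gm7177. The other 25 member sites had no annotated copy at that limit, and none of the 31 lay under an exon of another annotated gene.

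Hspa12a, a distant member of the HSP70 family, was the only one of the 7 genes whose sites were all lower by each measure. Its site lay in the 3' UTR, 2042 bases past the start of the stop codon, on chromosome 19 at position 58797321. Methylated cells numbered 6 among aged cells, 0.709% (0.261 to 1.54), and 144 among young cells, 5.49% (4.65 to 6.43). The mean was 0.161% in aged and 2.08% in young cells, a log2 ratio of -3.69, and the authors' deposited table gave it an adjusted p of 0.0407. The C-to-U within methylated cells stood at 22.8% in aged cells, resting on those 6 cells, and 37.9% in young cells. Among all listed 3' UTR sites, 49.3% were lower by mean and by share.

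Most of the edited bases stood next to an A. The C followed an A at 22 of the 31 sites, or 71.0%, against 76.8% of the listed sites with a readable window. It stood in RAC at 21 sites and in DRAC at 17, or 54.8%, against 64.9% of those listed sites. In DRACH (H being A, C or T) stood 11, or 35.5%, against 46.0%. Among coding sites the C followed an A at 66.7% of member sites and 80.4% of all listed ones. For DRAC the coding values were 48.1% and 69.5%, and for DRACH 29.6% and 34.3%. The largest increases of Zfp91 and Hsp90ab1 and the 5' UTR site of Hspa8 had GAACG around the edited C, and the Hspa12a site and Hspa8 site 2 had GAACT. These windows were read on the gene's strand, and the motifs on that strand only.

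Several edited bases came in pairs that were 3 bases apart. Of the 7 neighbouring pairs of member sites within 10 bases, 5 were exactly 3 bases apart, against 16.0% of 319 such pairs in the table. The runs of 24 bases below hold those 5 pairs, with both edited C in capitals.
Ttc3 sites 4 and 5, chr16:94442552-94442575, plus strand: tgaagaaactCgaCagatactgga
Ttc3 sites 6 and 7, chr16:94442620-94442643, plus strand: ttgttgtgatCgaCaactgcattg
Ttc3 sites 14 and 15, chr16:94451070-94451093, plus strand: taaaaagtggCaaCaagagaaaaa
Usp34 sites 2 and 3, chr11:23388747-23388770, plus strand: acaaataaatCaaCaagctcagct
Hsp90ab1 sites 2 and 3, chr17:45570422-45570445, minus strand: aggaagatgaCagCggcaaagaca

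In each of these 5 pairs 1 of the edited C followed an A and the other did not, and in 4 of them the other C was the upstream one. The C that did not follow an A was called in more cells at both ages in 5 of 5 pairs. In Ttc3 it was called in 46 aged and 82 young cells at site 6, whereas site 7 was called in 18 aged and 11 young cells. In Hsp90ab1 it was called in 63 aged and 145 young cells at site 3, whereas site 2 was called in 45 aged and 59 young cells, with the pseudogene difference named above at site 3. Outside these genes the same held in 9 of 22 pairs of this kind. Both sites of a pair went the same way by mean in 5 of 5 pairs, and in 6 of the 7 pairs within 10 bases, against 74.6% of all such pairs. Paired sites can lie on the same reads and are not independent.

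Other genes of protein quality control were taken from 10 lists of chaperones, ubiquitin enzymes, proteasome, endoplasmic reticulum and autophagy genes. Of these lists, 31 genes had a listed site, 7 of them the members. By the site with the largest difference of the mean, 6 of the 7 members were higher, although Ttc3 was lower by count of sites. By the same measure 13 of the other 24 genes were higher and 11 lower, against 55.8% of all listed genes higher. By site, 21 of the 46 sites of those 24 genes were higher by mean and 42 by share, or 45.7% and 91.3%, against 41.5% and 75.4% of all listed sites and 58.0% and 94.7% of listed coding sites. The lists name chosen genes and are not complete. None of the genes named on the proteasome, autophagy, or small heat shock and chaperonin lists had a listed site, but Rb1cc1, an autophagy initiation gene that the autophagy list leaves out, had 3, each with a higher mean in aged cells. Their means were 0.435%, 0.377% and 0.513% in aged cells and 0.118%, 0.0664% and 0.316% in young cells. Bnip3l, a mitophagy receptor gene that the list also leaves out, went the other way. At a 3' UTR site it had a mean of 0.187% in aged and 0.650% in young cells.

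Among ubiquitin ligases 9 of 15 genes were higher by mean at their largest site, the members Ttc3 and Zfp91 included, against 55.8% of all listed genes. By site, 21 of their 51 sites, or 41.2%, were higher by mean, against 41.5% of all listed sites. By share 49 of the 51 were higher, or 96.1%, against 75.4% of all listed sites and 94.7% of listed coding sites. Mycbp2, a very large neuronal ligase, had a mean of 5.67% in aged and 1.77% in young cells, and of its 8 sites 5 had a higher mean and 8 a higher share. Trip12, a HECT-type ligase, had 2.15% in aged and 0.385% in young cells, and Trim37, a TRIM-family ligase, 1.40% in aged and 0.0818% in young cells. Rnf20, a ligase for histone H2B, had 1.68% in aged and 0.646% in young cells, and Rnf227 1.66% in aged and 0.225% in young cells. On the lower side, Herc1 had 0.0433% in aged and 0.424% in young cells, and Fbxw7, the substrate receptor of an SCF ligase, 0.0695% in aged and 0.417% in young cells. Ube3a, the ligase lost in Angelman syndrome, had 0.337% in aged and 0.625% in young cells. Nedd4, Znrf1 and Hectd4 were lower by mean as well, and Dzip3 and Trim44 higher. At the largest site of each ligase gene with a lower mean, the share was higher in aged cells.

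Of the deubiquitinases 3 of 6 were higher by mean at their largest site, against 55.8% of all listed genes. Usp34, Usp9x and Usp7 were higher, and Usp33, Usp46 and Cyld lower. By site 4 of their 8 sites were higher by mean and 8 by share, against 41.5% and 75.4% of all listed sites. The shares of Usp33, Usp46 and Cyld were 2.25%, 2.84% and 1.42% in aged cells and 0.381%, 0.991% and 0.534% in young cells. By largest site all 3 HSP90 genes were higher, although only 5 of their 10 sites were higher by mean. Hsp90b1 of the endoplasmic reticulum had 1.23% in aged and 0.385% in young cells. The inducible Hsp90aa1 had 0.411% in aged and 0.0858% in young cells, though 1 of its 3 sites was higher by mean. In the endoplasmic reticulum list, Canx, a lectin chaperone that binds the glycoproteins marked by such glucosyltransferases, was lower by mean, 0.0120% in aged and 0.0468% in young cells. Its share was higher, in 13 aged cells, 1.54% (0.821 to 2.61), and 15 young cells, 0.572% (0.320 to 0.941), and its C-to-U within them stood at 0.778% in aged and 8.18% in young cells.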

How the data were processed

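The aged libraries were made with a split-pool whole-transcriptome kit, per the labels' protocols. STAR 2.7.5 and mm10 stand in the submitters' processing notes, and Bullseye, a caller of C-to-U sites, in the design text of the series. Filters, the handling of molecular identifiers and the authors' test were not stated.

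Of the deposited data the table of differing sites was analysed. Per the file headers it gives the percent of methylated cells, the C-to-U fraction (printed here as a percent), numbers of methylated cells, the authors' p-value and adjusted p-value, and the log2 ratio of young over aged mean, whose sign was turned here. The deposited percentages give 846 aged and 2623 young cells at every site, and the lowest total of methylated cells is 25. No listed absolute log2 ratio is under 0.58.

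Sites were placed on GENCODE M21 (GRCm38) exons by gene name, for 781 of 789 genes, with protein-coding, principal and best supported transcripts ranked first. Deposited positions were taken to count from 0: of 2037 exonic sites 1970 then fell on a C of the transcript, against 207 when counted from 1. Positions printed here count from 1. Windows came from the transcript sequences, and copies were searched in annotated transcripts only. Values were computed with Python 3.11.15, pandas 2.3.3 and scipy 1.17.1, and the arithmetic was tested on simulated data.

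The members and gene lists were chosen with earlier results of these data known. Ttc3 sites named are the 5 largest increases and decreases and their neighbours, other members have every site given, and other listed genes are drawn from the 8 largest changes each way. The 3-base pairs, Canx, Usp7, Usp33, Hsp90aa1, Rb1cc1 and Bnip3l were singled out after their values were seen. Trim44 and Hectd4 were named to complete the ligases. Alternatives varied the measure, the sites admitted, the merging of near sites, the transcript and the rule for a gene's direction.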

Additional observations from a re-analysis of the deposited data

How the results depend on the processing

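The direction of the member sites depended on the measure. By mean C-to-U 14 of 31 sites were higher in aged cells, by share of methylated cells 29, and by conversion inside methylated cells 12. By mean, 14 of 30 sites were higher when limited to 10 or more methylated cells at each age. With an authors' adjusted p under 0.001 it was 10 of 22, and with a C after A 11 of 22. With an absolute log2 ratio of 1 or more it was 12 of 26, and with sites within 10 bases counted once 12 of 24. These settings keep parts of the same 31 sites, so their counts are not separate evidence. Without Ttc3, a setting chosen after seeing the data, it was 8 of 13. Among coding sites 12 were higher by mean and 26 by share. Among 3' UTR sites 1 was higher by mean, 2 by share, and 0 of 2 on the transcript with the longest coding sequence, where Ttc3 site 1 is intronic. By its largest site Ttc3 was 1.24 points higher in aged cells, but by count of sites the difference was -6. Hsp90ab1 was 2.83 points higher by mean and -4.07 points by its site with the largest difference in share. Zfp91 and Hsp90ab1 had as many sites higher as lower. Of the 31 genes on the lists, 19 were higher by largest site, 19 by mean over sites and 28 by share. Leaving out a library was not run, since the table holds no value per library. No paired analysis was possible because the table holds 1 value per age and the labels give 1 group. The number of cells called limits sites such as Hspa12a, with 6 aged cells.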
